A study of Mus musculus with 12 samples.

Results

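Effector CD4+ T cells lacking Rinl were compared with wild-type (WT) effector CD4+ T cells across the whole transcriptome. Compared are the 6 effector libraries among the 12 libraries of the series: WT effector libraries 4, 5 and 6 and Rinl-knockout (KO) effector libraries 10, 11 and 12, numbered as in the columns of the deposited count table. Of the 55487 genes in that table, 15905 had enough counts to be tested, and 15709 of these lay more than 5 Mb from Rinl or on another chromosome. The cells came from mouse spleen and peripheral lymph nodes and were sorted by flow cytometry. Effector cells were sorted as CD62L- and CD44 high, and the naive cells of the same genotypes, used here for side-by-side values only, as CD62L+ and CD44 low. The groups differ in genotype and no treatment is named. The sources used here name neither the age and strain of the mice nor the part of Rinl that was altered. They do not tie the 3 libraries of a genotype to individual mice, so each p-value is set against a spread between libraries that may be technical.

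Rinl, the Ras and Rab interactor-like protein, is a guanine nucleotide exchange factor: it loads RAB5-family small GTPases with GTP, and active RAB5 directs endocytosis and the fusion of early endosomes, through which T cells take up and recycle surface receptors. The effector gate collects CD4+ T cells that have met antigen. In an unchallenged mouse it is a mixture that holds T helper 1 (Th1), T helper 2 (Th2), T helper 17 (Th17) and follicular helper (Tfh) cells, many regulatory T cells (Treg), and innate-like T cells such as natural killer T (NKT) cells. In bulk RNA from such a mixture, fewer cells of a type and less RNA per cell cannot be told apart.

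Levels are CPM, read counts scaled to a common library size, and changes are log2 fold changes of KO over WT with their standard error (SE). Total counts ran from 11606251 to 20381010 per effector library. Rinl mRNA stood at 437, 451 and 463 CPM in WT and at 45.8, 47.5 and 49.4 CPM in KO effector libraries (log2 fold change -3.24 ± 0.049, edgeR adjusted p = 2.0e-23). The CD4 T cell identity list (Cd3e, Cd4, Trac and 9 others) had 0 of 12 genes called higher or lower, against 3.16% of all genes tested. Cd4 itself averaged 991 ± 49.2 CPM in WT and 1043 ± 19.9 CPM in KO (mean ± SD of 3 libraries). The sort gene Cd44 did not pass either: it stood at 259, 256 and 254 CPM in WT and at 239, 226 and 221 CPM in KO (-0.16, edgeR adjusted p = 0.084). Every effector library held both Xist (358 to 664 CPM) and the Y-linked Ddx3y (40.03 to 96.3 CPM), with overlapping groups. Whether mice of both sexes were pooled is not stated in the sources used here and was not tested.

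Loss of Rinl went with many small changes spread over the genome. At an adjusted p under 0.05, 503 of 15905 genes (3.16%) were called, 230 higher in KO (1.45%) and 273 lower (1.72%). Near Rinl, 18 of the 196 genes tested within 5 Mb were called, which leaves 485 calls beyond that window, 221 higher and 264 lower. Of these 485, 333 changed by less than 0.5 on the log2 scale, 118 by 0.5 to 1, and 34 at least 2-fold (21 higher, 13 lower). The median size of the change was 0.359, and 434 of the 485 were protein-coding genes.

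Calls beyond the window fell on every autosome and on X, from 1.86% of the genes tested on chromosome X to 4.28% on chromosome 12. They were more frequent among abundant genes, 0.22% below 1 CPM and 5.99% at 100 CPM or more, where the median size was 0.229. Of the called genes, 493 had groups that do not overlap, against 17.9% over the whole table. The median log2 fold change over all genes was 0.0022. The count of calls depended on the libraries: without WT library 5 or 6 it was 270 or 267, without KO library 11 it was 194, and a fit of the effector libraries alone gave 230. Tested with limma on log2(FPKM + 1) or log2(FPKM + 0.1), 285 and 141 genes were called, and with no filter on low counts 959.

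**Figure D1:**
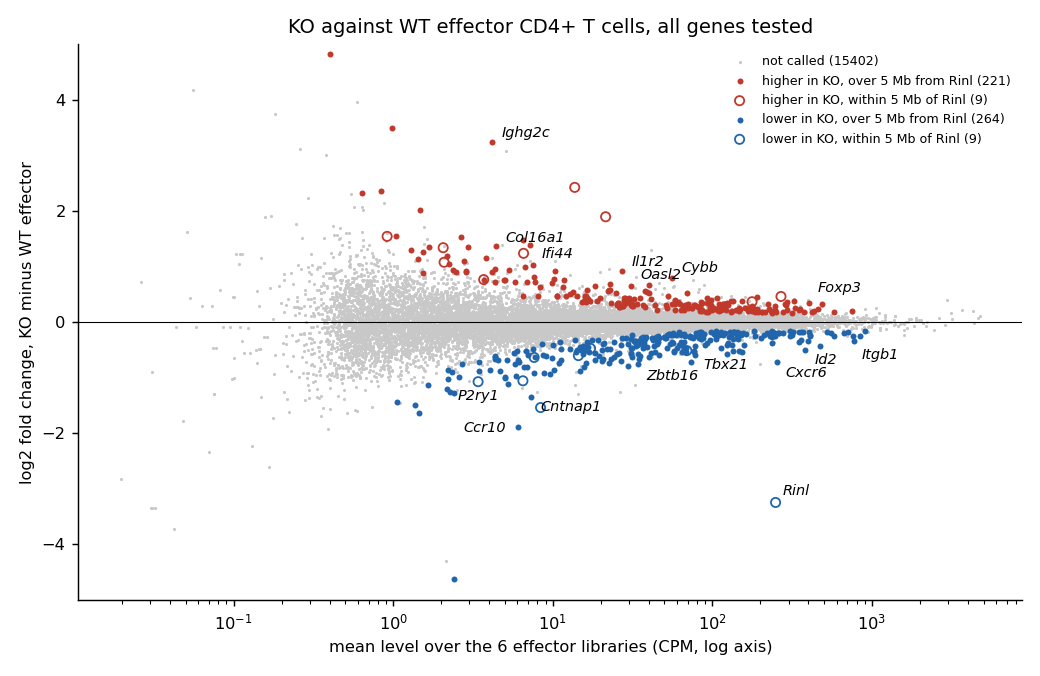
Log2 fold change of KO over WT effector cells against the mean CPM of the 6 effector libraries (log axis), 1 point per gene tested; red and blue mark the 230 genes called higher and the 273 called lower, open circles those within 5 Mb of Rinl, and 1 gene lies outside the axis. Rinl stands apart at -3.24, and the called genes at 100 CPM or more lie close to 0, with a median size of 0.229.

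Interferon-induced genes were higher in KO effector cells as a group. These genes respond to type I interferon through a transcription factor complex that contains STAT2 and IRF9 and binds an interferon-stimulated response element near their start. Of 45 genes of the list tested, 25 were called higher and 0 lower, against 1.45% of all genes called higher. All 45 had a log2 fold change above 0 (median 0.22, against 0.0022 over all genes). Of them 34 had non-overlapping groups, against 17.9% of all genes tested. The summed level of the list was 5085, 5046 and 5133 CPM in the WT libraries and 5882, 5810 and 5937 CPM in the KO libraries, which do not overlap.

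The promoters of 4 called members are shown because, of the called members whose promoter holds the core of the element, they had the lowest p-values. They run from 250 bases before to 50 after the gene's start in RefSeq on build GRCm38.p6, are written 5′ to 3′ on the strand of the gene, and have in capitals every match, on either strand, to the core searched for: GAAA, any 2 bases, GAAA. They lie at chr5:120907476-120907775 (Oas1a, minus strand), chr19:34640639-34640938 (Ifit1, plus), chr2:62646206-62646505 (Ifih1, minus) and chr10:128270248-128270547 (Stat2, plus).
Oas1a: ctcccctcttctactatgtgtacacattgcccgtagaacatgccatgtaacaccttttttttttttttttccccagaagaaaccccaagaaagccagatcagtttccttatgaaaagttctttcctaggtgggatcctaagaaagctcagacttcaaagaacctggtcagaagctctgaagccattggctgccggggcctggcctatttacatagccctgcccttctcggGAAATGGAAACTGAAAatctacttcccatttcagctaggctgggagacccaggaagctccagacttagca
Ifit1: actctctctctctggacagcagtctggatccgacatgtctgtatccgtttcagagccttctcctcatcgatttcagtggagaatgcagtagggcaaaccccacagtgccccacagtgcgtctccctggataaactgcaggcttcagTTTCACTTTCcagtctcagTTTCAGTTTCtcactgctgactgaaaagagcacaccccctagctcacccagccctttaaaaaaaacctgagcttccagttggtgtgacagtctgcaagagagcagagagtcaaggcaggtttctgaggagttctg
Ifih1: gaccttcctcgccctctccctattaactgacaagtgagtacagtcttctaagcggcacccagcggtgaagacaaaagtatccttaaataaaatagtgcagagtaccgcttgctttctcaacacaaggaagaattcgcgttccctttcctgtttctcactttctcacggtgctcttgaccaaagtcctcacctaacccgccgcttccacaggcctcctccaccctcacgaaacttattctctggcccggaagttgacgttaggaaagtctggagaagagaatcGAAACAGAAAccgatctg
Stat2: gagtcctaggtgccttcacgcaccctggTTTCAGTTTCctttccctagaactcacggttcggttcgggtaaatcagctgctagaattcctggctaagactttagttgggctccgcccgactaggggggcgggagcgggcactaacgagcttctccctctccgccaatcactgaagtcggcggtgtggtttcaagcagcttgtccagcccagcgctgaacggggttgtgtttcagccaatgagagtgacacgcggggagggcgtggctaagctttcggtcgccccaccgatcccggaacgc

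Oas1a had 2 overlapping matches beginning 20 and 14 bases before the start. Ifit1 had 2 separate ones at 104 and 85 bases before it, Stat2 had 1 at 222 bases before, and that of Ifih1 began at base 33 after the start. Of the 45 genes of the list, 33 had a promoter in the RefSeq table, and 21 of their 40 promoters (52.5%) held a match, against 1131 of all 32851 promoters (3.44%). Among the promoters of called genes the share was 10 of 19 (52.6%), and among those of members not called 11 of 21 (52.4%). A match describes the letters of this window only.

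Oasl2, Ifi44, Oas1a and Ifit1 had the 4 lowest p-values of the list. Oasl2, a relative of the oligoadenylate synthetases, stood at 22.3, 25.1 and 25.3 CPM in WT and at 33.7, 40.9 and 39.1 CPM in KO (0.65 ± 0.077, edgeR adjusted p = 1.9e-05). Oas1a, an oligoadenylate synthetase that activates RNase L, stood at 43.2, 44.0 and 45.6 CPM in WT and at 60.7, 63.3 and 58.7 CPM in KO (0.46 ± 0.059, edgeR adjusted p = 4.3e-05). Ifit1, which binds viral mRNA caps, stood at 56.6, 59.0 and 54.9 CPM in WT and at 77.9, 81.8 and 84.7 CPM in KO (0.52 ± 0.069, edgeR adjusted p = 1.1e-04). In each of these genes the lowest KO library lay above the highest WT library. Ifi44 had the largest change among the called members (1.02 ± 0.12, edgeR adjusted p = 1.9e-05), from 4.94 ± 0.25 to 9.99 ± 0.735 CPM. Among the regulators of the pathway, Usp18, the protease that removes ISG15 and dampens receptor signalling, rose from 31.1 ± 4.62 to 49.5 ± 4.56 CPM.

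Signalling components among the called genes were Stat2 (0.23) and Irf9 (0.18), subunits of the complex itself, and Ifih1 (0.31), the cytosolic sensor MDA5. The receptor genes Ifnar1 (-0.01) and Ifnar2 (0.06) did not pass. Members not called included Irf7 (0.14), Ddx58 (0.04), Bst2 (0.04) and Mx1 (0.37, edgeR adjusted p = 0.077). Oas1g, chosen after its values were seen, also rose (0.55). Oas1a and Oas1g, the Ifi20 genes and the Ifit3 pair share sequence, and the sources used here do not say how reads that fit several genes were treated. The 25 calls became 14 with only the effector libraries fitted, 16 without WT library 6, and 11 and 15 without KO library 11 or 12. The calls of Ifi44, Oasl2, Oas1a, Ifit1, Usp18, Ifih1, Stat2 and Isg20 were kept under all 15 alternatives.

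Genes induced mainly by interferon gamma moved in the same direction by less. Of 28 genes for immunity-related GTPases, guanylate-binding proteins and antigen presentation, 7 were called higher and 0 lower (median 0.15). Over all genes tested, 1.45% were called higher. All 7 encode GTPases that act on vacuoles of intracellular parasites: Irgm1 (0.20), Ifi47 (0.23), Irgm2 (0.22), Igtp (0.19), Tgtp2 (0.32), Gbp5 (0.25) and Gbp9 (0.20). Irgm1 stood at 160, 154 and 151 CPM in WT and at 182, 175 and 179 CPM in KO (edgeR adjusted p = 0.0062). The genes of peptide loading and the class I heavy and light chains were not called, such as Tap1 (0.14), B2m (0.00) and H2-K1 (0.07), nor was Irf1 (0.05). Irgm2 and Igtp overlap in the genome, and Tgtp2 has a near-identical partner in Tgtp1 (0.25, edgeR adjusted p = 0.064). The count of 7 ran from 1 to 12 when libraries were left out in turn (2 without KO library 11, 1 without WT library 6) and was 1 with only the effector libraries fitted.

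**Figure D2:**
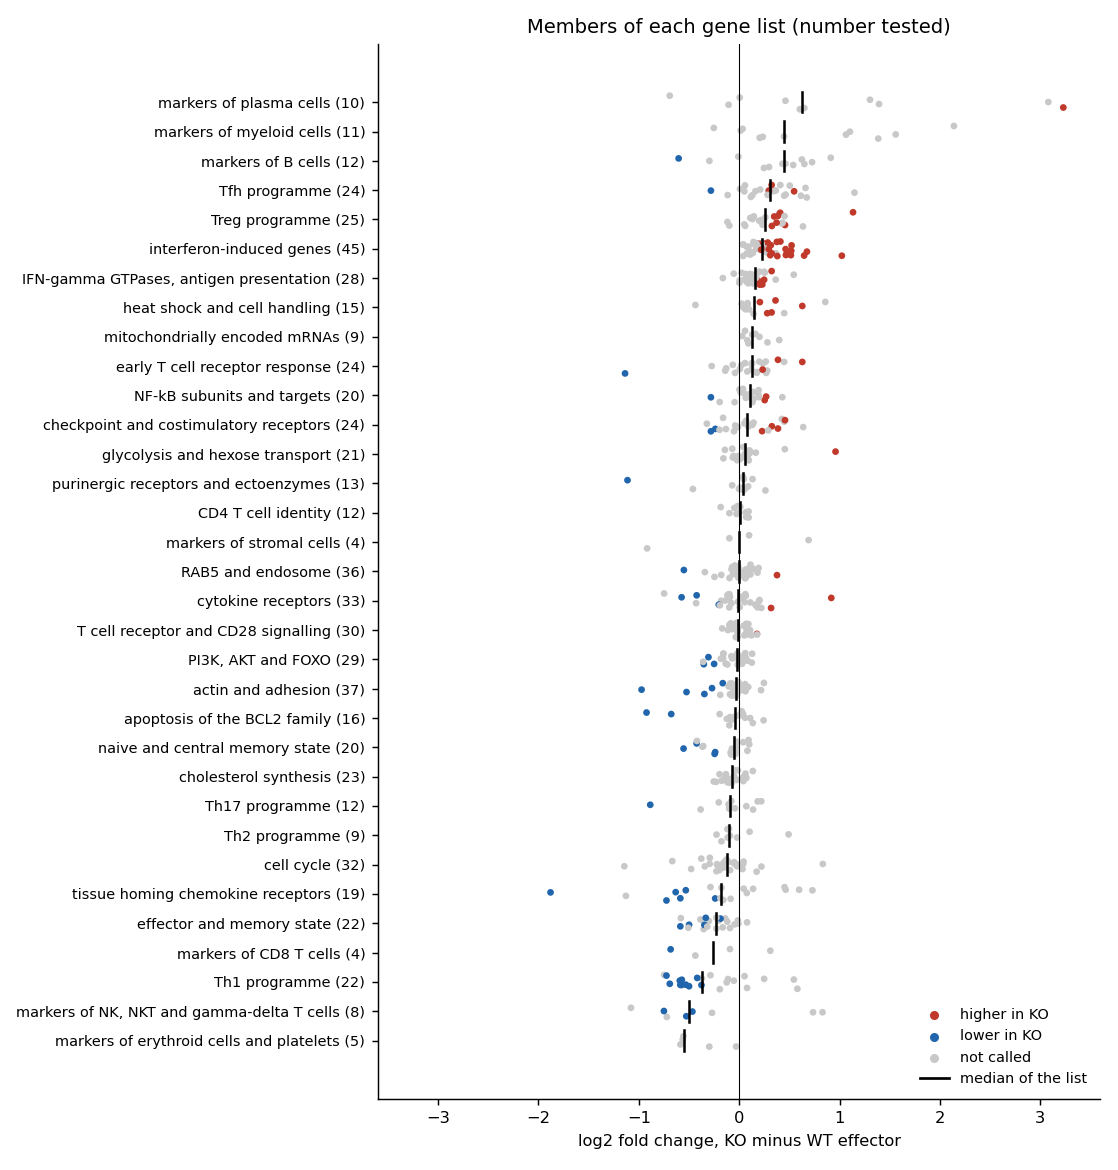
Log2 fold change of KO over WT effector cells for the tested members of 33 gene lists, ordered by median, 1 point per gene, with bars at the medians. Red points gather in the interferon-induced list (25 of 45 called higher) and blue points in the Th1 list (10 of 22 called lower).

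Several genes of Th1 and cytotoxic lymphocytes were lower in KO effector cells. Of 22 genes tested in the Th1 list, 10 were called lower, 0 higher and 12 not called (median -0.37), against 1.72% of all genes called lower. Tbx21, which encodes T-bet, the transcription factor that specifies Th1 cells, stood at 79.0, 107 and 94.5 CPM in WT and at 65.6, 59.4 and 60.5 CPM in KO (-0.59 ± 0.079, edgeR adjusted p = 1.9e-04). Nkg7, a granule membrane protein of cytotoxic cells, stood at 132, 154 and 157 CPM in WT and at 110, 96.5 and 91.7 CPM in KO (-0.57 ± 0.071, edgeR adjusted p = 1.1e-04). The groups do not overlap in either gene.

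Among the Th1 chemokines and their receptors, Ccl5 stood at 242, 278 and 284 CPM in WT and at 221, 205 and 193 CPM in KO (-0.38 ± 0.067, edgeR adjusted p = 0.0042). Xcl1, which attracts cross-presenting dendritic cells, fell from 20.6, 30.2 and 25.02 CPM to 17.8, 14.2 and 14.8 CPM (-0.69 ± 0.15, edgeR adjusted p = 0.013). Cxcr6, a receptor of tissue-resident and NKT cells, stood at 294, 361 and 289 CPM in WT and at 229, 163 and 178 CPM in KO (-0.72 ± 0.15, edgeR adjusted p = 0.034). The receptor Ccr2 (-0.53), the death ligand Fasl (-0.42), the interleukin-12 receptor chain Il12rb2 (-0.57) and the transcriptional regulator Id2 (-0.50) were also among the 10. The cytokine gene Ifng ran at 7.06, 13.95 and 11.1 CPM in WT and at 8.23, 8.62 and 7.71 CPM in KO, overlapping groups that were not called, and Eomes (-0.12), Runx3 (-0.05) and Stat4 (0.05) did not pass either. The 10 calls became 4 without KO library 11 and 6 without WT library 5 or 6; Cxcr6 was lost with DESeq2 and Xcl1 without KO library 11, among others, while Tbx21 and Nkg7 were lost only with limma on log2 of FPKM plus 0.1.

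Some markers of innate-like lymphocytes were lower too. Of 8 tested markers of natural killer (NK) cells, NKT cells and gamma-delta T cells, 3 were called lower, 0 higher and 5 not called (median -0.50), against 1.72% of all genes called lower. Of the 8, 2 had a change above 0, and their summed level was 199 to 205 CPM in WT and 126 to 165 CPM in KO. Zbtb16, which encodes PLZF, the transcription factor of NKT and other innate-like T cells, stood at 40.7, 50.7 and 37.0 CPM in WT and at 31.8, 22.6 and 21.3 CPM in KO (-0.75 ± 0.15, edgeR adjusted p = 0.024). Klrb1c, the NK1.1 receptor, fell from 77.4 ± 6.15 to 56.1 ± 6.04 CPM (-0.47), and Klrk1, the activating receptor NKG2D, from 67.9 ± 5.31 to 47.0 ± 10.1 CPM (-0.53). Klrd1, the CD94 chain, listed here with CD8 T cell markers, stood at 20.8, 22.2 and 25.3 CPM in WT and at 17.3, 13.3 and 11.6 CPM in KO (-0.68 ± 0.12, edgeR adjusted p = 0.0031). Of the NK and CD8 lists, Ncr1 ran from 0.123 to 0.87 CPM and Cd8a from 0.058 to 0.224 CPM over the 6 libraries. No marker of the 2 lists was at 0 in all 6. The CD8 T cell markers summed to 30.2 to 39 CPM in WT and 23.8 to 28 CPM in KO, and Klrd1 was the 1 of 4 tested that was called. Cd8b1 stood at 6.01 CPM in WT and 7.52 CPM in KO and was not called. The part of these cells in the Th1 result was not tested.

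Further genes of innate-like and cytotoxic T cells, chosen after their values were seen, were lower as well. The constant regions of the T cell receptor gamma chain, Trgc1 (-0.55), Trgc2 (-0.53) and Trgc4 (-0.55), fell together, although Trgc1 and Trgc2 share sequence. Trgc2, for example, stood at 50.004, 53.1 and 51.4 CPM in WT and at 41.4, 29.2 and 36.6 CPM in KO. The delta constant region Trdc was at 6.67 ± 1.98 and 5.56 ± 0.461 CPM and was not called. Trav11d, a segment of the family used by the NKT cell receptor, stood at 21.4, 29.8 and 24.6 CPM in WT and at 17.5, 14.4 and 15.7 CPM in KO (-0.67 ± 0.13, edgeR adjusted p = 0.0049), and its joining partner Traj18 at 3.57 ± 0.632 and 2.46 ± 0.491 CPM, not called. Zfp683, the residency factor Hobit (-0.71), Ctsw, cathepsin W of cytotoxic granules (-0.46), Itga2, the DX5 integrin (-0.67), Il17rb, the interleukin-25 receptor (-0.71), Cd7 (-0.67), Jaml (-0.73), Slamf7 (-0.41) and Ly6c2 (-0.47) also fell. For each of the 12 genes of this group that fell, all of them called, every KO library lay below every WT library. Of the 503 genes called, 493 had such separate groups, against 17.9% of all genes tested.

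**Figure D3:**
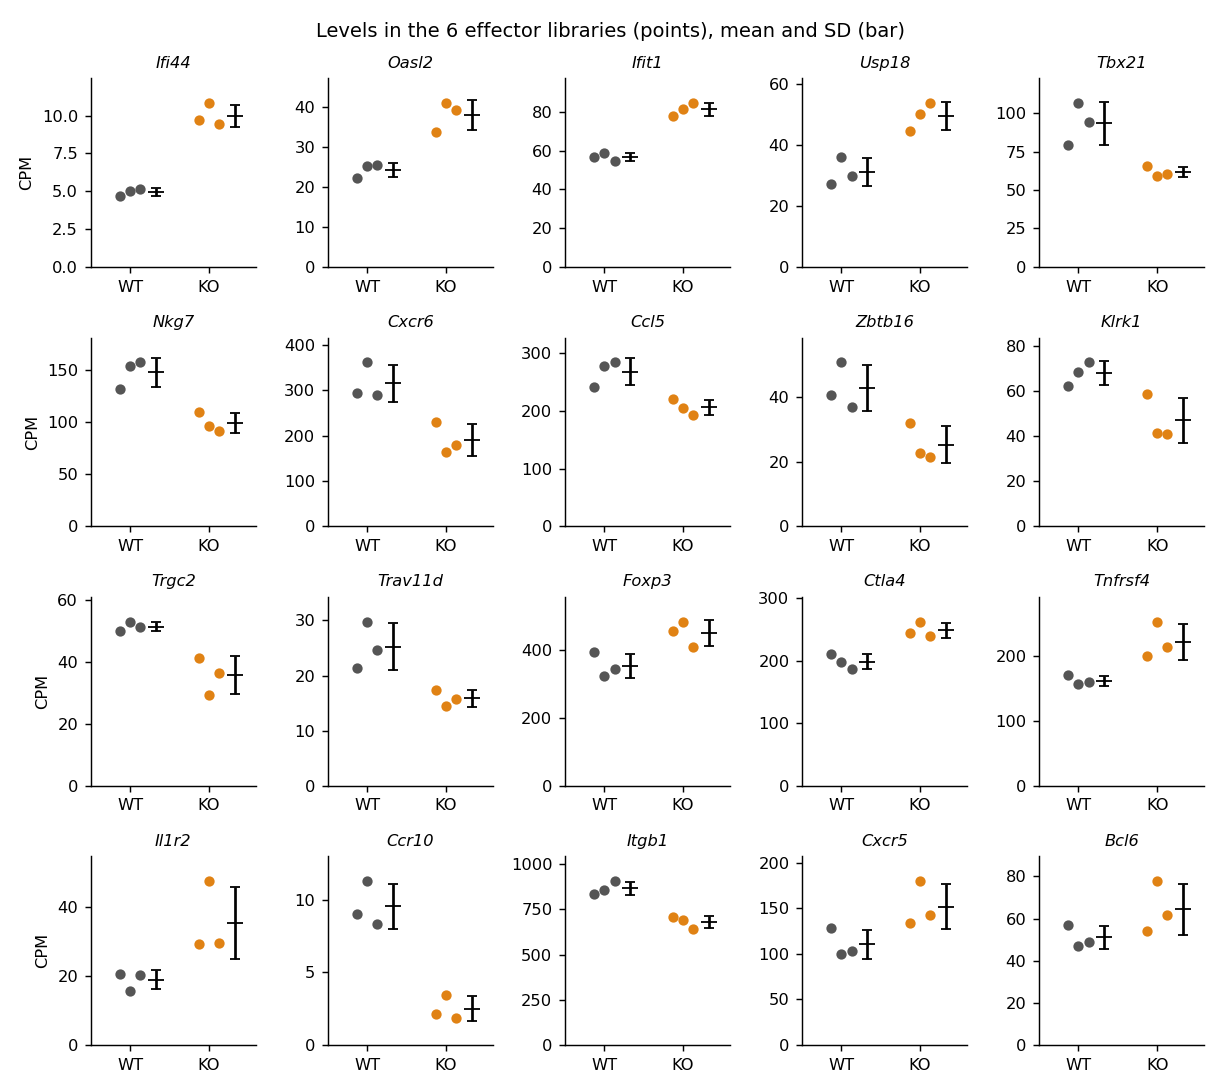
CPM in the 3 WT (grey) and 3 KO (orange) effector libraries for 20 genes, with the mean and SD of each group as a bar; each vertical axis starts at 0. The groups do not overlap for Oasl2, Tbx21, Zbtb16 or Ctla4, and overlap for Bcl6, where KO library 11 is the highest at 77.8 CPM.

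Several Treg genes were higher in KO effector cells. Of 25 tested, 7 were called higher, 0 lower and 18 not called (median 0.26), against 1.45% of all genes called higher, and the summed level was 3079, 2741 and 2809 CPM in WT and 3425, 3766 and 3160 CPM in KO. Foxp3, the lineage factor of Treg cells, stood at 393, 323 and 343 CPM in WT and at 456, 483 and 408 CPM in KO (0.35 ± 0.069, edgeR adjusted p = 0.010). Ctla4, the inhibitory receptor that removes CD80 and CD86 from antigen-presenting cells, stood at 211, 199 and 187 CPM in WT and at 244, 263 and 240 CPM in KO (0.33 ± 0.052, edgeR adjusted p = 7.6e-04). Tnfrsf4, the costimulatory receptor OX40, stood at 170, 156 and 159 CPM in WT and at 199, 252 and 213 CPM in KO (0.46 ± 0.066, edgeR adjusted p = 6.1e-04). In all 3 genes the libraries of each genotype stay apart.

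The other called members were Tnfrsf9 (0.39), the costimulatory receptor 4-1BB, the G protein-coupled receptor Gpr83 (0.41), Ebi3, a subunit of interleukin-35 (0.37), and the growth factor Areg (1.13), which was near 1 CPM. Ikzf2 (0.39), which encodes Helios, ran from 293 to 395 CPM in WT and from 382 to 484 CPM in KO, overlapping groups that were not called, and Il2ra (0.11), Nrp1 (0.14) and Klrg1 (-0.10) did not pass. Foxp3 lost its call without WT library 6 (0.33, adjusted p = 0.065 with edgeR) and without KO library 11 (0.29, adjusted p = 0.066 with edgeR). Treg calls were 4 without WT library 5, 2 without WT library 6 and 3 without KO library 11.

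Tfh genes leaned the same way with few calls. Of 24 tested, 22 had a log2 fold change above 0 (median 0.31), and 3 were called higher and 1 lower. Over all genes tested, 1.45% were called higher and 1.72% lower. The called genes were Tox, a transcription factor of Tfh and chronically stimulated cells (0.32), Batf, an AP-1 factor needed for Tfh cells (0.30), Rgs16, which limits chemokine receptor signalling (0.55), and, lower, Cd40lg, the ligand through which T cells help B cells (-0.28). Bcl6, the factor that defines Tfh cells, stood at 57.1, 47.1 and 48.9 CPM in WT and at 54.1, 77.8 and 61.6 CPM in KO, with overlapping groups (0.34 ± 0.12, edgeR adjusted p = 0.17). Cxcr5, their homing receptor, stood at 129, 99.8 and 103 CPM in WT and at 134, 180 and 143 CPM in KO (0.46 ± 0.12, edgeR adjusted p = 0.068). KO library 11 was the highest of the 6 for both genes, and also for Pdcd1 (232 CPM) and Il21 (18.0 CPM), neither of which was called.

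Cxcr5 passed under 7 of 15 alternatives, among them DESeq2 (adjusted p = 0.0020) and the fit without WT library 4, and its size fell to 0.32 without KO library 11. Bcl6 was 0.17 without KO library 11 and passed without KO library 10 (0.46). Tox, Batf and Rgs16 each lost their call without KO library 11, at 0.22, 0.20 and 0.32. Icos, the costimulatory receptor of Tfh cells, averaged 293 ± 20.9 CPM in WT and 303 ± 34.5 CPM in KO. Of the other helper lists, Th2 had 0 of 9 genes called, with Gata3 at 125 ± 5.69 and 123 ± 5.05 CPM, and Th17 had 1 of 12 called lower, Cd163l1, a scavenger receptor of gamma-delta T cells (-0.89). The shares over all genes tested were 3.16% called in either direction and 1.72% called lower.

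**Figure D4:**
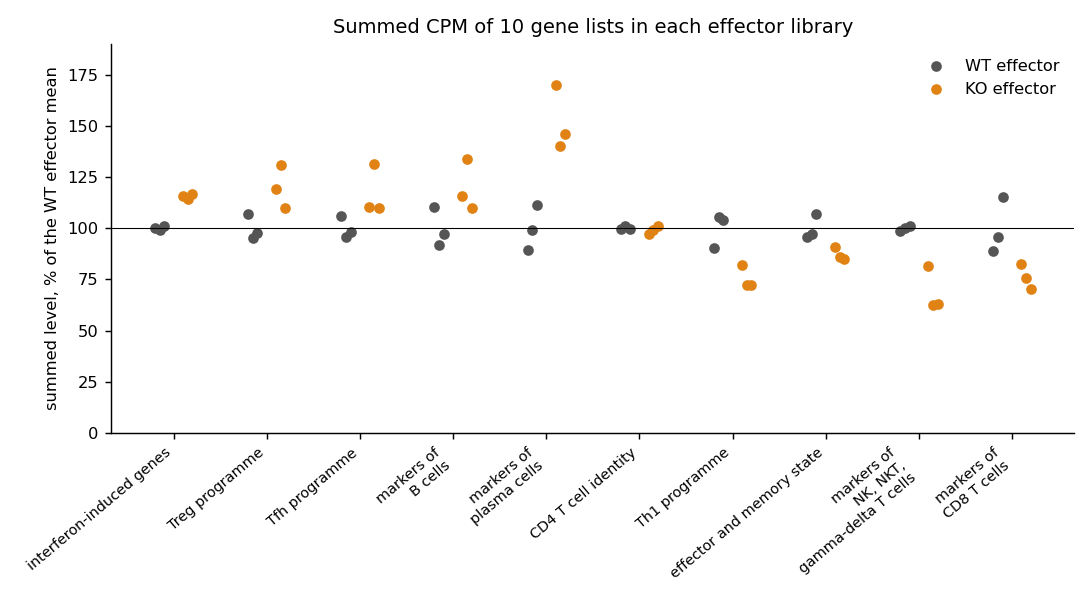
Summed CPM of 10 gene lists in each WT (grey) and KO (orange) effector library, as a percentage of the WT mean of that list. The interferon-induced, Treg, Tfh and plasma cell lists have all KO libraries above the WT libraries. The Th1, effector, CD8 T cell and NK, NKT and gamma-delta lists have them below. The CD4 T cell identity list stays at 7379 to 7693 CPM in all 6.

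Markers of B-lineage and myeloid cells were also compared, since a few such cells could remain in the gate. The 10 plasma cell markers summed to 105 to 131 CPM in WT and 165 to 200 CPM in KO. Of them Ighg2c alone was called higher, against 1.45% of all genes tested. Igkc stood at 17.3, 22.5 and 31.7 CPM in WT and at 69.9, 54.3 and 52.5 CPM in KO without passing (1.304, edgeR adjusted p = 0.13). In naive cells Ighg2c was called higher too, from a WT mean of 0.115 to a KO mean of 5.36 CPM (5.38, edgeR adjusted p = 0.038). Igkc there averaged 5.81 CPM in WT and 30.7 CPM in KO without passing (2.60, edgeR adjusted p = 0.058). Among the 21 genes beyond 5 Mb that rose at least 2-fold in effector cells, 5 were immunoglobulin segments: Ighg2c (3.23), Igkv9-120 (4.81), Igkv10-96 (3.49), Iglc1 (2.02) and Ighj3 (1.05), all but Ighg2c chosen after their values were seen. B cell markers summed to 971 to 1167 CPM in WT and 1159 to 1413 CPM in KO, mostly Ighm. Cd22, an inhibitory receptor, was called lower (-0.60), but it lies within 5 Mb of Rinl on chromosome 7 and lost its call under 7 of 15 alternatives. Myeloid markers summed to 44.9 to 71.3 CPM in WT and 57.0 to 81.2 CPM in KO, with 0 of 11 called, against 3.16% of all genes called in either direction. The parts of these cells in the interferon, Treg and Tfh results were not tested.

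Called genes that carry a gene name, lie beyond 5 Mb and have separate groups were ranked by their rise. They needed a mean of at least 5 CPM in the higher group, a filter that a gene can pass through that group alone. After Ighg2c, the largest rises were Col16a1 (1.37, with a WT mean of 2.46 CPM), Padi4 (1.14), Ifi44, Tmc3 (0.98), Slc2a6 (0.96), Fam83g (0.93) and Il1r2 (0.92). Col16a1 kept its call under all 14 alternatives it had values for. Next came genes of several functions. Actg2, a smooth muscle actin, stood at 7.43, 6.12 and 7.95 CPM in WT and at 12.1, 14.2 and 14.4 CPM in KO (0.91 ± 0.14, edgeR adjusted p = 6.4e-04). Cybb, the catalytic subunit of the phagocyte NADPH oxidase, stood at 48.5, 34.0 and 39.9 CPM in WT and at 65.8, 86.4 and 59.97 CPM in KO (0.80 ± 0.15, edgeR adjusted p = 0.020). The endonuclease Dnase1l3 (0.80), the G protein subunit Gna14 (0.90, with a WT mean of 2.93 CPM), the growth factor Fgf2 (0.77), the formin-related Fhdc1 (0.75) and Zan (0.72) rose as well. KO library 11 was the highest of the 6 libraries for each of these genes except Ighg2c and Actg2. Without it Ighg2c, Padi4, Tmc3, Slc2a6, Fam83g, Gna14, Dnase1l3, Fgf2, Fhdc1 and Zan lost their calls (Gna14 at 0.52, adjusted p = 0.38 with edgeR). Reep1 (1.53) and the interleukin-1 receptor antagonist Il1rn (1.34), chosen after their values were seen, rose from WT means of 1.39 and 1.66 CPM.

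Among named genes with a mean of at least 5 CPM in WT, Ccr10 and Cntnap1 had the largest falls beyond 5 Mb of Rinl, and they share a locus on chromosome 11 (GRCm38). Ccr10, on the minus strand at 101172997 to 101175443, lies within Cntnap1, on the plus strand at 101170523 to 101190724. Cntnap1, a cell adhesion gene of nerve, stood at 10.1, 10.7 and 10.6 CPM in WT and at 2.84, 5.10 and 4.36 CPM in KO (-1.34 ± 0.17, edgeR adjusted p = 6.2e-05). Plekhh3, named for its overlap with Cntnap1 and also on the minus strand, was lower too (-1.26, edgeR adjusted p = 0.040). Whether reads were counted by strand is not stated in the sources used here, so reads of these overlapping genes cannot be told apart.

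Other large falls varied in their spread within each group. Ifitm10 stood at 12.3, 13.6 and 13.2 CPM in WT and at 7.13, 6.74 and 7.79 CPM in KO (-0.86 ± 0.12, edgeR adjusted p = 1.5e-04). Trpm6, a magnesium channel, stood at 17.7, 23.4 and 18.6 CPM in WT and at 11.5, 10.98 and 11.3 CPM in KO (-0.81 ± 0.14, edgeR adjusted p = 0.0014). Cpne7, a calcium-dependent phospholipid-binding copine, stood at 38.6, 40.2 and 33.6 CPM in WT and at 21.6, 22.9 and 20.4 CPM in KO (-0.78 ± 0.088, edgeR adjusted p = 9.9e-06). These genes were chosen among those whose groups do not overlap, so their separation follows from the choice. Nav1 (-0.92), the water and glycerol channel Aqp9 (-0.88), the kinase Cdc42bpb (-0.87), the membrane metalloprotease Mmp14 (-0.81) and the RNA-binding Raver2 (-0.81) fell by similar amounts.

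The lowest p-values after Rinl itself and its neighbours belonged mostly to moderate falls of well-expressed genes. Vipr1, the receptor for vasoactive intestinal peptide, stood at 43.9, 54.2 and 47.9 CPM in WT and at 31.1, 30.1 and 33.3 CPM in KO (-0.63 ± 0.065, edgeR adjusted p = 4.7e-06). Arsb, the lysosomal arylsulfatase B, stood at 90.5, 89.1 and 91.6 CPM in WT and at 68.5, 62.6 and 58.5 CPM in KO (-0.51 ± 0.055, edgeR adjusted p = 6.0e-06). Trat1, an adaptor that associates with the T cell receptor complex, stood at 85.5, 94.4 and 92.3 CPM in WT and at 68.7, 57.3 and 62.3 CPM in KO (-0.53 ± 0.058, edgeR adjusted p = 6.9e-06). Separate groups were a condition of the choice of these genes too. Galnt10, a mucin-type glycosyltransferase, fell from 151 ± 12.4 to 113 ± 1.69 CPM (-0.42), and Itgb3, the beta-3 integrin chain, from 159 ± 6.405 to 111 ± 9.70 CPM (-0.53).

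Adhesion molecules were among the most abundant genes to change. Of 37 actin and adhesion genes, 5 were called lower and 0 higher (median -0.03), against 1.72% of all genes called lower. Integrin beta chains made up 3 of these 5. Itgb1, partner of the VLA integrins, stood at 833, 859 and 907 CPM in WT and at 708, 693 and 642 CPM in KO (-0.35 ± 0.050, edgeR adjusted p = 2.2e-04). Itgb2, the LFA-1 chain, stood at 891, 984 and 974 CPM in WT and at 851, 847 and 845 CPM in KO (-0.16 ± 0.043, edgeR adjusted p = 0.035). Myo1f, a class I myosin, fell from 260 ± 16.5 to 215 ± 5.18 CPM, and the LIM protein Pdlim4 completed the 5. Selplg, the selectin ligand PSGL-1 (-0.25), Adgre5, the adhesion receptor CD97 (-0.24), Lsp1, an actin-binding protein of leukocytes (-0.25), Anxa6 (-0.20), Esyt1 (-0.19) and B4galnt1 (-0.17) also fell, from over 500 CPM each. The alpha chains Itgal (-0.08) and Itga4 (-0.01) and the actin genes Actb (-0.02) and Actg1 (0.04) were not called. Itgb2 and B4galnt1 lost their call in 8 of 15 alternatives, Esyt1 in 7, and Lsp1 and Anxa6 in 6. Adgre5 and Myo1f lost it in 1, and Itgb1, Itgb3, Selplg and Pdlim4 in 0.

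Among 19 receptors tested that place T cells in tissues, 6 were called lower, 0 higher and 13 not called (median -0.18), against 1.72% of all genes called lower; 7 of the 19 had a change above 0. The lower ones included Ccr10, Cxcr6 and Ccr2, the gut-homing receptor Ccr9 (-0.63), and S1pr1, the receptor that lets lymphocytes leave lymphoid organs (-0.24). S1pr1 stood at 342, 342 and 337 CPM in WT and at 289, 282 and 295 CPM in KO (edgeR adjusted p = 0.0016). Without KO library 11 or 12 or WT library 5 the count was 3. Cx3cr1, the fractalkine receptor of cytotoxic cells, ran from 20.6 to 65.7 CPM in WT and from 14.7 to 29.0 CPM in KO and was not called, and Cxcr4 (0.60), Ccr8 (0.45) and Ccr7 (-0.09) did not pass.

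In the effector and memory list 5 of 22 were lower and 0 higher (median -0.23), against 1.72% of all genes called lower. The 5 included Itgb1, Id2, the intermediate filament gene Vim (-0.33) and S100a10 (-0.19). That count was 2 without KO library 11, 3 without WT library 5 or 6, 3 with the effector libraries alone, and 11 without WT library 4. In the naive and central memory list 4 of 20 were lower and 0 higher (median -0.06): S1pr1, the chromatin organiser Satb1 (-0.24), the interleukin-7 receptor Il7r (-0.42) and Ly6c1 (-0.55). Tcf7 (-0.02), Lef1 (-0.03) and Foxo1 (0.08) did not pass.

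Of 36 genes tested in the RAB5 and endosome list, the pathway in which Rinl acts, 1 was called higher and 1 lower (median 0.00), against 3.16% of all genes called in either direction. Appl2, an adaptor that binds active RAB5 on early endosomes, stood at 46.6, 47.9 and 51.7 CPM in WT and at 34.9, 31.9 and 33.2 CPM in KO (-0.55 ± 0.069, edgeR adjusted p = 3.8e-05). Eea1, the RAB5 effector that tethers early endosomes, stood at 132, 106 and 115 CPM in WT and at 147, 177 and 134 CPM in KO (0.38 ± 0.090, edgeR adjusted p = 0.038). The Appl2 groups are far apart and those of Eea1 nearly touch, and Eea1 lost its call under 7 alternatives, including that without KO library 11 (0.25). The RAB5 genes Rab5a (-0.07), Rab5b (-0.01) and Rab5c (-0.02), Appl1 (-0.04), and the exchange factors Rin2 (0.14), Rin3 (0.07) and Rabgef1 (0.18) were not called.

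Signalling lists held scattered calls, beside 1.45% of all genes called higher and 1.72% lower. In the T cell receptor and CD28 list 1 of 30 was called, the zeta chain gene Cd247 (0.18). The early T cell receptor response list had 3 of 24 higher, namely Nfatc1 (0.23), Tnfrsf9 and Fos (0.63), and the feedback inhibitor Spry2 lower (-1.14, from 2.30 ± 0.277 to 1.02 ± 0.294 CPM), whereas Nr4a1 (0.20) and Egr2 (0.27) did not pass. Nfkb2 (0.25) and Relb (0.27), the subunits of noncanonical NF-kB, were the 2 of 20 higher in that list, with Cd40lg lower. Pik3ip1, an inhibitor of PI3 kinase (-0.35), the pseudokinase Trib2 (-0.25) and the kinase Sgk1 (-0.31) were the 3 of 29 lower among PI3K, AKT and FOXO genes. Pik3ip1 stood at 75.2, 75.8 and 72.8 CPM in WT and at 58.7, 57.5 and 59.1 CPM in KO (edgeR adjusted p = 2.1e-04), and the lowest WT library lay well above the highest KO library.

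The next 3 lists stand beside 1.45% of all genes called higher and 1.72% lower. Among cytokine receptors 2 of 33 were higher, Il1r2 and Tnfrsf1b, the TNF receptor 2 (0.32). In the same list 3 were lower, Il12rb2, Il7r and the interleukin-17 receptor chain Il17ra (-0.20). Of 24 checkpoint and costimulatory receptors, 4 were higher, Ctla4, Tnfrsf4, Tnfrsf9 and Cd27 (0.23), and 2 lower, Cd40lg and Cd96 (-0.24). Ctla4, Tnfrsf4 and Tnfrsf9 were also counted among the Treg calls, and Cd40lg among the Tfh and NF-kB calls. Heat shock genes had 5 of 15 higher and 0 lower (median 0.14): Dnaja1 (0.32), Dnajb1 (0.28), Hsph1 (0.36), Hspa8 (0.21) and Fos; this list holds genes that also respond to the handling of cells. Hspa8, the constitutive chaperone, stood at 707, 714 and 680 CPM in WT and at 767, 825 and 832 CPM in KO. Without KO library 11 or 12 the heat shock calls were 1 and 2, and without WT library 5 or 6 they were 3.

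Apoptosis genes of the BCL2 family had 2 of 16 lower, the pro-death Bmf and Bik (-0.68), and 0 higher. Bcl2 (-0.08), Mcl1 (0.11) and Bcl2l11 (-0.12) were not called. Over all genes tested, 1.72% were called lower and 1.45% higher. Purinergic receptors had 1 of 13 lower, P2ry1, while P2rx7 had means of 324 CPM in WT and 326 CPM in KO. Glycolysis had 1 of 21 higher, the transporter Slc2a6. The cell cycle (0 of 32, median -0.13), cholesterol synthesis (0 of 23, median -0.07) and mitochondrially encoded mRNA lists (0 of 9, median 0.13) had no call with edgeR, as did the erythroid (0 of 5) and stromal (0 of 4) markers. Mki67, the proliferation marker, averaged 68.0 ± 13.2 CPM in WT and 59.2 ± 5.25 CPM in KO. At an unadjusted p under 0.05, 2560 genes (16.1%) passed over the whole table.

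The effector changes were set beside those of naive cells, which share no library with them. In naive cells 187 genes (1.18%) were called. Of the 485 effector genes beyond 5 Mb, 59 were also called in naive cells, 56 of them in the same direction. Of the 221 higher genes 167 had the same sign in naive cells, as did 186 of the 264 lower genes, where 55.5% of all genes tested had the same sign in both. Bmf (-0.92 in effector and -1.02 in naive cells), Oasl2 (0.65 and 0.48), Ifit1 (0.52 and 0.46), Appl2 (-0.55 and -0.29), Pik3ip1 (-0.35 and -0.23) and S1pr1 (-0.24 and -0.22) were called in both.

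The difference between the effects in effector and naive cells was called for 23 genes (0.145%), of which 16 beyond 5 Mb were also called in effector cells. Ccl5 fell in effector cells (-0.38) and rose in naive cells (1.88), where its WT mean was 0.415 CPM, and Myo1f did the same (-0.27 and 1.32). Plac8, chosen after its values were seen, also fell in effector (-0.57) and rose in naive cells (1.49). Its naive means were 0.733 CPM in WT and 1.88 CPM in KO. In WT effector cells Ccl5, Myo1f and Plac8 averaged 268, 260 and 30.1 CPM. Vipr1 (-0.63 and -0.06), Arsb (-0.51 and 0.10), Galnt10 (-0.42 and -0.08) and Pdlim4 (-0.97 and 0.02) were lower in effector cells and not called in naive cells, and their difference passed the test. Vipr1, Galnt10 and Pdlim4 were more abundant in WT naive cells (311, 277 and 73.3 CPM) than in WT effector cells (48.7, 151 and 7.85 CPM). Arsb was less abundant there (43.4 against 90.4 CPM). The part of naive-like cells within the effector gate in these falls was not tested. For Tbx21 (-0.59 and 0.53, adjusted p of the difference 0.48 with edgeR) and Foxp3 (0.35 and 0.27, 0.87) the difference did not pass.

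**Figure D5:**
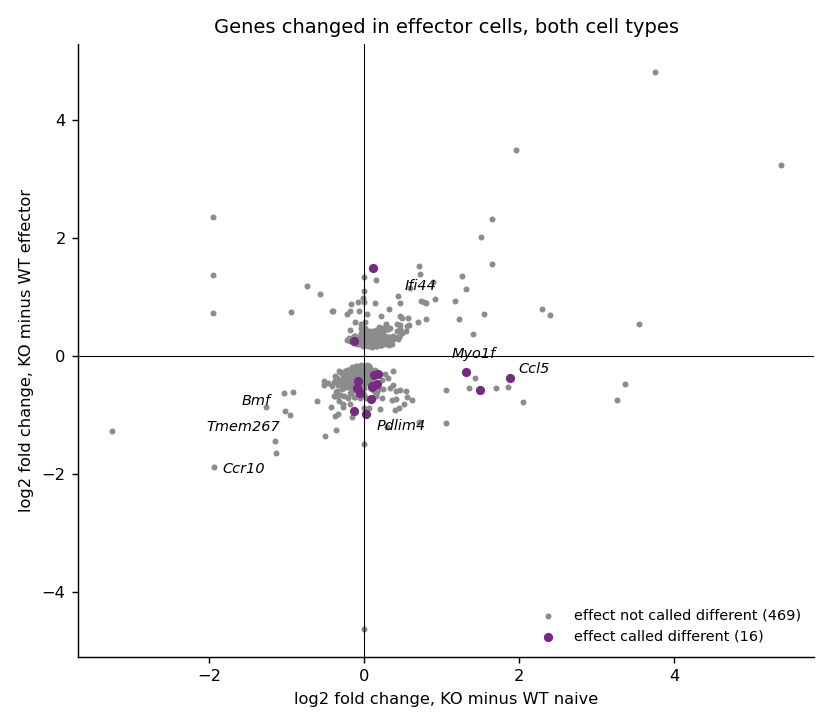
Log2 fold change of KO over WT in effector cells (vertical) against naive cells (horizontal) for the 485 genes called in effector cells beyond 5 Mb of Rinl; purple marks the 16 whose 2 effects were called different. Ccl5 and Myo1f lie at lower right, with -0.38 and -0.27 in effector and 1.88 and 1.32 in naive cells. Their naive WT means were 0.415 and 0.789 CPM. Bmf and Tmem267 lie at lower left.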

How the data were processed

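Polyadenylated RNA of sorted CD4+ T cells was sequenced after TruSeq stranded mRNA preparation, per the labels' protocols. The authors deposited a table of raw read counts per gene and a table of FPKM values; the submitters' processing notes name STAR, Picard, DESeq2 1.30.0 and build mm10. The counting program and its strand setting are not stated in the sources used here. The deposited FPKM equal the deposited counts divided by gene length and a size factor, to within 2.5e-15 on 11921 genes with at least 20 counts. Every sample column of both tables was mapped to a sample group by its name.

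The count analysis used edgeR 4.0.16 under R 4.3.3: genes with low counts were filtered by group, libraries were scaled by TMM, and one quasi-likelihood model with robust estimation was fitted to the 12 libraries (biological coefficient of variation 5.21%). KO minus WT effector was tested with Benjamini-Hochberg adjustment over 15905 genes at 0.05. Totals of 11606251 to 20381010 counts per effector library limit precision for genes of few counts. Pairs of libraries of one group correlated at 0.995 to 0.9958 (log scale, across genes) and differed by more than counting noise. Each library was counted as 1 replicate, but such a spread does not show whether the libraries came from separate mice. Alternatives used limma 3.58.1, DESeq2 1.42.0, other scalings and filters, and each library left out; the procedure was tested on simulated data.

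Named genes were the 15 largest rises and falls where the higher group averaged 5 CPM or more, the 10 lowest p-values, the 10 most abundant called genes, up to 4 called genes of each list and a set of lineage genes, beyond 5 Mb of Rinl and with groups that do not overlap, these limits not applying to list and lineage genes; others are said to be chosen after their values were seen, or are list members given with their list. The members and lists were chosen with earlier results of these data known. Lists share members, so a called gene can count in several lists. The listed symbols Zfyve20, Vps34, Cd244, Tcrg-C1 and Tcrg-C2 were not matched. Promoter sequences are RefSeq's. Results for a few genes are not reported here.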

Additional observations from a re-analysis of the deposited data

Results flagged for a closer look

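For 10 genes, 9 of them named above, the effect of Rinl loss differed between effector and naive cells by the edgeR test of the difference itself, given here as the effector minus the naive log2 change with its adjusted p. Ccl5 differed by -2.25 (edgeR adjusted p = 0.019), with -0.38 in effector and 1.88 in naive cells and a naive WT mean of 0.415 CPM. Myo1f differed by -1.59 (edgeR adjusted p = 7.4e-04), with -0.27 and 1.32 and a naive WT mean of 0.789 CPM. Pdlim4 differed by -0.99 (edgeR adjusted p = 0.019), with -0.97 and 0.02 and a naive WT mean of 73.3 CPM. Arsb differed by -0.62 (edgeR adjusted p = 4.6e-04), with -0.51 and 0.10 and a naive WT mean of 43.4 CPM. Vipr1 differed by -0.57 (edgeR adjusted p = 0.0016), with -0.63 and -0.06 and a naive WT mean of 311 CPM. Galnt10 differed by -0.35 (edgeR adjusted p = 0.037), with -0.42 and -0.08 and a naive WT mean of 277 CPM.

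The other 4 were chosen after their values were seen. Plac8 differed by -2.06 (edgeR adjusted p = 0.027), with -0.57 in effector and 1.49 in naive cells and a naive WT mean of 0.733 CPM. Jaml differed by -0.82 (edgeR adjusted p = 0.0085), with -0.73 and 0.09. Ctsw differed by -0.63 (edgeR adjusted p = 0.0027), with -0.46 and 0.16. Sema4a, a semaphorin of lymphocytes, differed by -0.62 (edgeR adjusted p = 0.019), with -0.52 and 0.10. All 10 were called lower in effector cells. They are the ones singled out here among 16 such genes beyond 5 Mb. Among the rest, Gm42031 (1.48 in effector and 0.11 in naive cells) and St8sia1 (0.26 and -0.13) were higher in KO effector cells, and the others lower.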

How the results depend on the processing

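No paired analysis was possible because the table's columns carry no replicate number shared between genotypes. The 503 calls (230 higher, 273 lower, 485 beyond 5 Mb) became 959 (515, 444, 934) with no filter on low counts, 230 (96, 134, 216) with only the effector libraries, 285 (118, 167, 270) with limma on log2(FPKM + 1) and 141 (53, 88, 128) on log2(FPKM + 0.1). With 1 library left out, leaving 2 in a group, they ran from 194 to 662 (74 to 320 higher, 120 to 342 lower, 180 to 643 beyond 5 Mb). Without WT library 5 or 6 the calls beyond 5 Mb were 255 and 252. Other scalings, DESeq2 (517), limma-voom (600), a minimum of 5 CPM (452) and no robust estimation (539) stayed within 1.5 times; the cause of these differences was not tested.

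For lists with 5 or more calls, leaving out libraries was chosen after seeing the data. Calls then ran from 11 to 23 for interferon-induced genes, 1 to 12 for interferon gamma GTPases, 2 to 10 for Treg, 4 to 12 lower for Th1, 2 to 11 lower for effector and memory, 3 to 7 lower for homing, 4 to 5 lower for actin and adhesion, and 1 to 4 for heat shock. With only the effector libraries, calls fell to 14 interferon-induced, 1 interferon gamma GTPase, 1 Tfh, 1 NF-kB, and 0 RAB5, T cell receptor, glycolysis and cytokine receptor genes higher, with 2 plasma cell markers higher. In that fit 3 effector and memory, 3 homing, 2 naive-state, 1 NK, NKT and gamma-delta, 1 BCL2-family, 1 cytokine receptor, 0 early T cell receptor response and 0 B cell genes were lower. With DESeq2, higher calls were 11 interferon gamma GTPases, 6 Tfh, 4 NF-kB, 1 homing, 1 purinergic, 1 B cell and 0 glycolysis, and lower calls were 5 PI3K, 1 CD4 identity, 1 BCL2-family and 1 cell cycle.

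Of 97 named genes called, 33 kept their call under every alternative they had values for (at most 15) and 64 lost it under at least 1. Of 9 named genes not called, 5 passed under at least 1. The sign reversed for 2 genes that were not called: with libraries left out Icos ran from -0.043 (without KO library 11) to 0.12, and Gata3 from -0.056 to 0.014 (without WT library 5; 0.006 without KO library 10). At this depth a called gene under 1 CPM needed a large change: 4 such genes had a median size of 2.922.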
